A study of Arabidopsis thaliana with 6 samples.

Results

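U4 is a small nuclear RNA (snRNA), a short non-coding RNA of the spliceosome. The deposited coverage table held 11 Arabidopsis thaliana U4 copies, each with an snRNA region and the 50 bp that follow its 3′ end (the extension), so 22 of 150 regions. The members were all copies whose name begins with atU4, without U4atac of the minor spliceosome. Of the 11 copies, 9 carried no pseudogene mark and 2 (atU4.3p and atU4-11p) ended in p, which marks a pseudogene; the 2 are described apart.

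The series concerns CPL4, a phosphatase that acts on the tail of the largest RNA polymerase II subunit, and a switch from snRNA to messenger RNA transcription. The 6 RNA-seq libraries came from 2 genotypes of the Columbia ecotype (spelled Colombia in the labels), in biological triplicate per the design text. One genotype was a CPL4 knockdown made by RNA interference (CPL4RNAi, 3 libraries), and the other was wild type (Col, 3 libraries). All plants were whole seedlings, 10 days old, grown on ¼ MS medium with 0.5% sucrose, with no treatment named. Total RNA was depleted of ribosomal RNA, copied to cDNA by a SMARTer protocol and sequenced as pairs of 100 bp reads. The sources used here name neither the promoter of the interference construct nor the number of independent lines.

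In the authors' deposited table the targeted gene itself, CPL4 (AT5G58003, chr5:23479804-23482048), stood at 8.84 FPKM in the libraries labelled CPL4 knockdown and 4.92 FPKM in wild type, a log2 ratio of 0.85 (authors' q = 6.39e-04). CPL4 was thus higher, not lower, under the knockdown label, and those libraries are called labelled knockdown libraries here. The sources used here do not give library totals. Over the snRNA regions of all families except atU5-13, summed depth was 1462519, 2718072 and 274395 in labelled knockdown replicates 1 to 3, against 2179464, 7534954 and 4820223 in wild type replicates 1 to 3. Labelled knockdown replicate 3 was the shallowest and wild type replicate 2 the deepest. In these bulk samples, fewer cells of a type and less RNA per cell cannot be told apart.

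U4 pairs with U6 snRNA and holds it inactive until the spliceosome is activated, when U4 is released. RNA polymerase II transcribes U4 genes in plants from a promoter with a TATA box and an upstream sequence element. A 3′ box just after the mature end directs where the primary transcript is cut, so mature U4 is followed by little RNA. RNA of a U4 copy over its extension is therefore RNA that continues past the usual end. No source used here says whether the libraries kept strand, so other RNA over the same bases would be counted too.

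The extensions are the sequences the results turn on, and they are shown for 10 of the 11 copies, 5′ to 3′ on the strand of the copy. Capitals mark a match to the 3′ box, searched as CA, then 3 to 10 of N, then AGTNNAA, on both strands. The letters come from the RefSeq chromosomes of TAIR10.1, read at the TAIR10 coordinates of the deposited table.
atU4.1 (chr5:19885541-19885590, minus strand): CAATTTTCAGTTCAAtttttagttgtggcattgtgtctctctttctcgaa
atU4.2 (chr3:2178134-2178183, minus strand): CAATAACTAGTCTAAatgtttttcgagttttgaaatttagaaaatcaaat
atU4-4 (chr1:18218483-18218532, minus strand): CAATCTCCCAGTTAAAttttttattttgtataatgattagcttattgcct
atU4-5 (chr5:8972412-8972461, minus strand): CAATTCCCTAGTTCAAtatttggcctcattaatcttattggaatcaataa
atU4-6 (chr1:4006818-4006867, minus strand): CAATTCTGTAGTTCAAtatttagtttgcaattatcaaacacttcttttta
atU4-7 (chr5:9833084-9833133, plus strand): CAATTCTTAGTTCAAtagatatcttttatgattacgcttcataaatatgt
atU4-8 (chr5:9494024-9494073, minus strand): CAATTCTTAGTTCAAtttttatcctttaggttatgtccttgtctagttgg
atU4-9 (chr1:30081276-30081325, plus strand): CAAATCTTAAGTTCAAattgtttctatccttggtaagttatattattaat
atU4-10 (chr1:12987344-12987393, plus strand): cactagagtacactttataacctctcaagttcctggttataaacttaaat
atU4.3p (chr5:20094747-20094796, minus strand): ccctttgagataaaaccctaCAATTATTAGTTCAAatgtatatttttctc

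The box letters were found in 9 of 11 U4 extensions (81.8%), against 37.3% of all 75 extensions and 2.86% of the 50 bases after 27443 protein-coding genes. By family the share was 77.8% in U2, near that of U4, 35.7% in U5 and 0% in U1 and U6. In 8 copies the match began at base 1 of the extension, directly after the annotated snRNA, and in atU4.3p at base 21. In atU4-10 these letters were not found, and in the 10 copies shown none matched on the other strand. Every 25-base word of the extensions of atU4.1, atU4.2, atU4-4 to atU4-10 and atU4.3p occurred once in the genome. Reads that hold at least 25 bases of these extensions can thus be told apart between copies by sequence. Shorter stretches were not checked. The highest wild type sum of an unmarked U4 extension was 21, so no wild type read there held such a word.

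The snRNA regions are much more alike. Of the 11 copies, 7 were 154 bp long and differed from each other by 2 to 9 bases, an identity of 94.2% to 98.7%. Shown are atU4.2, the copy with the highest single depth, atU4.1, whose extension gave the largest U4 difference, and the shorter atU4-9, which had the lowest depth of the unmarked copies with reads. Capitals mark AATTTCTGG, the letters of the site bound by the Sm protein ring.
atU4.2 (chr3:2178184-2178337, minus strand): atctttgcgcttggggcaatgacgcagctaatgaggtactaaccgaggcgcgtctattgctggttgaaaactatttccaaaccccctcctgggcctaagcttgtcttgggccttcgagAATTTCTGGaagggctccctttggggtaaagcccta
atU4.1 (chr5:19885591-19885744, minus strand): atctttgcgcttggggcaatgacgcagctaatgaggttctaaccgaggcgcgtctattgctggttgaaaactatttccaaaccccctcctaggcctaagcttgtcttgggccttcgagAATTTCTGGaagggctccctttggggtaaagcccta
atU4-9 (chr1:30081138-30081275, plus strand): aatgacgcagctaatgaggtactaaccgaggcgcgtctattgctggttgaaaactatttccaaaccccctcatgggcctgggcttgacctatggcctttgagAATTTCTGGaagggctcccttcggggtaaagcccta

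Counted from 1 at the 5′ end of atU4.2, atU4.1 differed by A38T and G91A, and atU4-4 by A38T and T140C. The copies atU4-5 and atU4-6 differed from atU4.2 at 5 bases each, and atU4-7 and atU4-8 at 7 each. The Sm letters began at base 119 in all 7 full-length copies and at base 103 in atU4-9, and were not found in atU4-10, atU4.3p or atU4-11p. Words of 100 bases, the read length, occurred once in the genome for 100% of positions in atU4.1, atU4-7 and atU4-9, 96.4% in atU4.2 and atU4-4, 87.3% in atU4-5, and 43.6% in atU4-6 and atU4-8. How reads that match more than 1 copy were placed is not stated in the sources used, so the split of snRNA depth between atU4-6 and atU4-8 is the least certain.

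The 110 bases before the snRNA are shown for the same 3 copies, with capitals for the upstream element CCCACATCG and for TATAA, both searched on the strand of the copy (the element also on the other).
atU4.2 (chr3:2178338-2178447, minus strand): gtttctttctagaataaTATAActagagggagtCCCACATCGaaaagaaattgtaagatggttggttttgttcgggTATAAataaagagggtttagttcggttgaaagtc
atU4.1 (chr5:19885745-19885854, minus strand): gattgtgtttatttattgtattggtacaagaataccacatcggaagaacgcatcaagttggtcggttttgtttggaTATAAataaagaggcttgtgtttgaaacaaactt
atU4-9 (chr1:30081028-30081137, plus strand): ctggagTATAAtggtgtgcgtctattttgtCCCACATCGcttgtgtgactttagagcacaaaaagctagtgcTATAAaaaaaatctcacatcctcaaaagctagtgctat

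The upstream element was found in 7 of 11 U4 windows (63.6%), against 73.3% of windows before all 75 snRNA regions and 0.0328% before protein-coding genes. It began 77 bases before the snRNA in 6 copies and 80 bases before it in atU4-9, whose region starts later in the U4 sequence. Its exact letters were not in the windows of atU4.1, atU4.3p, atU4-10 and atU4-11p. The atU4.1 window held accacatcg, which differs from the element only at the first letter. The atU4-10 window began with acatcg, the end of the element, so the window edge may have cut a match. TATAA was found in all 11 windows (100%), against 76% before all snRNA regions and 34.7% before protein-coding genes. By family it was found before 92.9% of U5, 88.9% of U2, 71.4% of U1 and 23.1% of U6 copies.

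**Figure D1:**
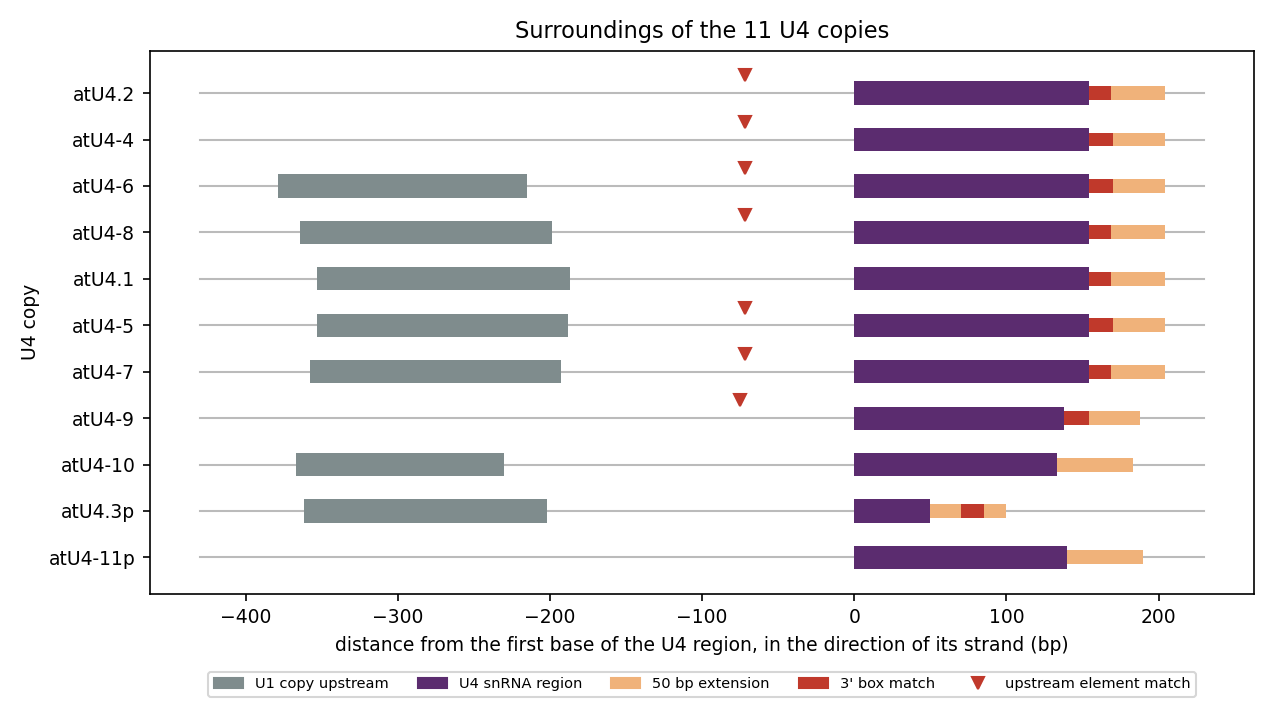
Map of the 11 U4 copies, one per row, by distance in bp from the first base of the U4 region in the direction of its strand: U1 copies upstream in grey, U4 regions in purple, extensions in orange, 3′ box matches in red and upstream element matches as red triangles. In 8 copies the box lies at the start of the extension, and 7 copies follow a U1 copy by 187 to 230 bp.

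The values are summed read depth, the sum over the bases of a region of the reads covering each base, as deposited, with no scaling between libraries. One read spanning an entire extension contributes 50, so a sum below 50 means that no read covered the whole extension. The main differences were these. In 4 of 11 U4 extensions, those of atU4.1, atU4.2, atU4-4 and atU4-9, every labelled knockdown library stood above every wild type library. Over all 75 extensions the share was 32.0%. In the first 3 of these copies the extension over own snRNA passed the test under all 10 alternatives tried. In the main fit 7 of 9 U4 copies passed it, and 50.7% of 67 copies of the whole table. Unscaled snRNA depth of atU4.1, atU4.2 and atU4-4 was lower in the labelled knockdown libraries but did not pass the test. Of the 22 U4 regions, 18 had depth in at least 1 library: 9 snRNA regions and 9 extensions. The copies atU4-10 and atU4.3p were at 0 in both regions in all 6 libraries.

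U4 snRNA depth, unscaled, was lower in the labelled knockdown libraries than in wild type for most copies. All 3 labelled knockdown libraries lay below all 3 wild type libraries in 7 of 11 U4 snRNA regions; over all 75 snRNA regions the share was 41.3%. After median-ratio scaling 6 of the 8 unmarked copies with reads had a negative log2 difference and 2 a positive one, and after scaling to equal total snRNA depth the split was 4 and 4. The sign of the U4 snRNA differences thus depended on the scaling. The total used for equal-depth scaling includes U4 itself. The U4 part was largest in labelled knockdown replicate 3, at 166792 of 274395. It was 299169 of 1462519 and 599328 of 2718072 in labelled knockdown replicates 1 and 2. In wild type replicates 1 to 3 it was 978201 of 2179464, 2850103 of 7534954 and 940431 of 4820223. Equal-depth scaling therefore pulls U4 differences toward 0, and its even split cannot show that U4 was unchanged.

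atU4.2 snRNA had 125539, 202031 and 62415 in labelled knockdown replicates 1 to 3, against 349383, 1548778 and 349203 in wild type. The groups did not overlap, and wild type replicate 2 stood far above the other 5 libraries. The mean was 5.76-fold lower in labelled knockdown libraries, a log2 difference of −2.30 ± 0.83 (SE; limma adjusted p = 0.144), where limma was run on log2(depth + 1) over all 150 regions. The test was therefore not passed (threshold 0.05), nor under any of 12 alternatives. Without wild type replicate 2 the mean was 2.69-fold lower (log2 difference −1.58), and the log2 difference was −0.60 after median-ratio and −0.24 after equal-depth scaling.

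atU4-4 snRNA had 100184, 230988 and 61173 in labelled knockdown libraries and 377152, 970136 and 358148 in wild type. Again wild type replicate 2 was highest and the groups did not overlap. The mean was 4.35-fold lower, with a log2 difference of −2.18 ± 0.69 (SE; limma adjusted p = 0.104). It was 2.81-fold lower without wild type replicate 2 and 7.05-fold lower without labelled knockdown replicate 2, and the log2 difference was −0.47 after median-ratio and −0.12 after equal-depth scaling.

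atU4-9, the least covered copy, had 1984, 4235 and 1253 in labelled knockdown libraries, against 12204, 16585 and 13923 in wild type. Every labelled knockdown value was below every wild type value. The mean was 5.72-fold lower, a log2 difference of −2.69 ± 0.50 (SE; limma adjusted p = 0.0266). On the log2 scale no other unmarked U4 snRNA region differed by more. The call was lost without labelled knockdown replicate 1 and without each wild type library in turn (limma adjusted p = 0.0921 to 0.112), and after equal-depth scaling the difference was −0.63. Without labelled knockdown replicate 2 the mean was 8.80-fold lower.

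atU4-6 had 17879, 31409 and 10670 in labelled knockdown libraries and 67595, 92896 and 60381 in wild type, without overlap, a log2 difference of −1.99 ± 0.46 (SE; limma adjusted p = 0.0492). After equal-depth scaling this difference was 0.07, and leaving out any 1 library other than labelled knockdown replicate 2 ended the call (limma adjusted p = 0.0590 to 0.155). atU4-6 and atU4-9 were the only U4 snRNA regions that passed the test, 2 of 11, and over all 75 snRNA regions 22.7% were called lower; 7 of 11 had an unadjusted p under 0.05. The U4 share is thus near that of the table as a whole, and the U4 median log2 difference of −1.99 was near that over all 75 snRNA regions, −1.95.

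Of the others, atU4-5 had 5761, 16059 and 5184 in labelled knockdown libraries and 27346, 37426 and 27504 in wild type. atU4-8 had 14975, 37600 and 8845 in labelled knockdown libraries and 69135, 90944 and 60578 in wild type. atU4.1 had 17645, 37523 and 10860 in labelled knockdown libraries and 50511, 60424 and 44286 in wild type. These 3 copies showed no overlap between groups and means 3.42-fold, 3.59-fold and 2.35-fold lower, with limma adjusted p = 0.0676, 0.0851 and 0.144. Without labelled knockdown replicate 2, the deepest of its group, all 3 were called (limma adjusted p = 0.00586, 0.0164 and 0.0244), with means 5.62-fold, 6.18-fold and 3.63-fold lower. Of the 8 unmarked copies with reads only atU4-7 overlapped: 15202, 39483 and 6392 in labelled knockdown libraries against 24875, 32914 and 26408 in wild type, a log2 difference of −0.83 (limma adjusted p = 0.560, 95% interval −2.78 to 1.12). After median-ratio scaling the atU4-7 difference turned to 0.87, and after equal-depth scaling that of atU4-5 to 0.10 and that of atU4.1 to 0.65.

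Within a library the order of the copies was steadier than their depth. atU4.2 and atU4-4 were the top pair in all 6 libraries and together held 73.9% ± 1.61 of U4 snRNA depth in labelled knockdown libraries and 79.3% ± 7.89 in wild type (SD, n = 3 each). Their shares overlapped between groups, and the highest was that of wild type replicate 2, where atU4.2 alone held 54.3%. Which of the pair led varied from library to library, and they were not tested against each other. atU4-9 was lowest in all 6 libraries among the 8 copies, and also per base, at a mean depth of 18.0 in labelled knockdown libraries and 103 in wild type. For atU4.2 the mean depth per base was 844 in labelled knockdown libraries and 4864 in wild type.

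**Figure D2:**
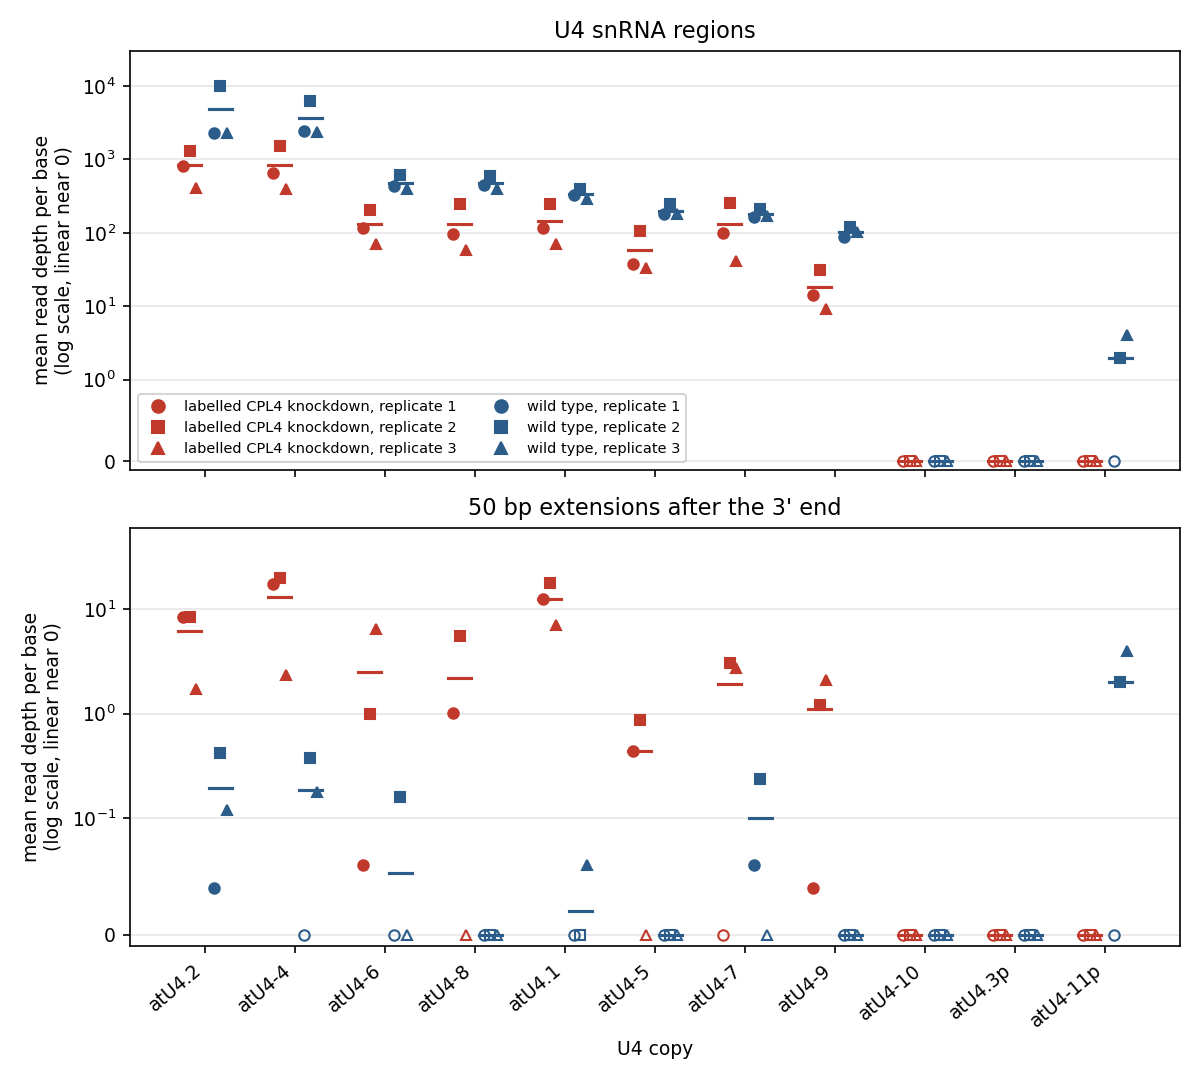
Mean read depth per base (summed depth over region length, log scale, linear near 0) over the snRNA region (top) and the extension (bottom) of each U4 copy; points are libraries (labelled knockdown left, wild type right, open at 0), bars are group means. Extensions lie higher in the labelled knockdown libraries for 8 copies by group mean, while the unscaled snRNA regions lie lower. That direction turned in 4 of 8 copies after equal-depth scaling, whose total includes U4 itself.

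For the extensions the differences were positive in all 8 unmarked copies with reads. For atU4-5, atU4-8 and atU4-9, at 0 in every wild type library, a negative difference was not possible. In wild type the extensions were almost empty: the highest value of any unmarked U4 extension in any wild type library was 21. In the labelled knockdown libraries 8 of the 9 unmarked copies had extension depth in at least 2 libraries. The U4 extension median log2 difference was 4.28 over 11 copies, against 2.10 over all 75 extensions. It was 3.73 for U1 and 3.56 for U2, near that of U4, and 1.89 for U5 and 0 for U6.

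atU4.1 had the lowest adjusted p of the U4 extensions. Its extension had 622, 887 and 353 in labelled knockdown libraries, against 0, 0 and 3 in wild type. The groups were far apart, with means of 621 ± 267 in labelled knockdown libraries and 1.00 ± 1.73 in wild type (SD, n = 3 each). The log2 difference was 8.52 ± 0.73 (SE; 95% interval 6.56 to 10.47; limma adjusted p = 0.00290).

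atU4.2 extension depth was 417, 418 and 86 in labelled knockdown libraries, against 2, 21 and 6 in wild type. Replicate 3 was the lowest of the labelled knockdown libraries and still above all wild type values. The mean was 31.8-fold higher, a log2 difference of 5.0 ± 1.07 (SE; limma adjusted p = 0.0380). Leaving out any 1 library other than labelled knockdown replicate 3 ended this call (limma adjusted p = 0.0523 to 0.131), and without wild type replicate 2 the mean was 76.8-fold higher.

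atU4-4 extension depth was 864, 986 and 116 in labelled knockdown libraries, against 0, 19 and 9 in wild type. The groups did not overlap, and the mean was 70.2-fold higher, the highest mean of any U4 extension at 655 ± 471 in labelled knockdown libraries against 9.33 ± 9.50 in wild type (SD, n = 3 each). With a log2 difference of 6.31 ± 1.56 (SE) the limma adjusted p was 0.0558, so the test was not passed. It was passed in 4 of 12 alternatives, among them median-ratio and equal-depth scaling (limma adjusted p = 0.0109 and 0.00589). It was not passed when any 1 library was left out (limma adjusted p = 0.0536 to 0.178). Without wild type replicate 2 the mean was 146-fold higher, and without wild type replicate 1 it was 46.8-fold higher.

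atU4-9 extension depth was 2, 61 and 104 in labelled knockdown libraries, against 0 in all 3 wild type libraries. The groups did not overlap, but the lowest value, 2, can cover at most 2 bases, and the log2 difference of 4.75 ± 1.52 (SE) was not called (limma adjusted p = 0.104). Without labelled knockdown replicate 1 it was 6.33 and called (limma adjusted p = 0.00249). These 4 copies were the U4 extensions without overlap, 4 of 11, and over all 75 extensions 32.0% were higher without overlap. Called higher were 2 of 11, atU4.1 and atU4.2, and over all 75 extensions 20.0%; 4 of 11 had an unadjusted p under 0.05.

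The other 4 extensions were at or near 0 in wild type and uneven among the labelled knockdown libraries. atU4-6 had 3, 50 and 325 in labelled knockdown libraries and 0, 8 and 0 in wild type. atU4-7 had 0, 151 and 138 in labelled knockdown libraries and 3, 12 and 0 in wild type. Replicate 3, the library with the least snRNA depth, held most of the atU4-6 extension. atU4-8 had 51, 275 and 0 and atU4-5 22, 44 and 0 in labelled knockdown libraries, with 0 in every wild type library for both. None of the 4 passed the test (limma adjusted p = 0.248 for atU4-5 and atU4-6, 0.560 for atU4-7 and 0.255 for atU4-8). Their log2 differences ran from 2.89 to 4.60, and without labelled knockdown replicate 3 atU4-5 and atU4-8 were called (limma adjusted p = 0.00442 and 0.0182). The 8 unmarked extensions with reads had positive log2 differences under both scalings too, with medians of 5.38 and 5.75, against 4.68 unscaled. Scaling could not make the differences of atU4-5, atU4-8 and atU4-9 negative, since their extensions were at 0 in every wild type library.

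Each extension was also set against its own snRNA within a library. The measure is extension depth as a percent of snRNA depth, not per base. For atU4.1 it was 3.53%, 2.36% and 3.25% in labelled knockdown libraries, against 0%, 0% and 0.00677% in wild type. The 3 labelled knockdown values lay close together, at a mean of 3.05% ± 0.607 against 0.00226% ± 0.00391 in wild type (SD, n = 3 each). Per base that is 9.38% ± 1.87 of the snRNA depth in labelled knockdown libraries and 0.00695% ± 0.0120 in wild type. On the scale log2(extension + 1) − log2(snRNA + 1), the difference was 9.93 ± 0.96 (SE; limma adjusted p = 0.00106 over 67 copies).

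For atU4.2 the extension was 0.332%, 0.207% and 0.138% of the snRNA depth in labelled knockdown libraries, against 5.72e-04%, 0.00136% and 0.00172% in wild type. For atU4-4 it was 0.862%, 0.427% and 0.190% in labelled knockdown libraries, against 0%, 0.00196% and 0.00251% in wild type. Both copies stood without overlap, and both were called, with differences of 7.30 ± 0.81 and 8.49 ± 1.23 (SE; limma adjusted p = 0.00146 and 0.00347). The 2 most deeply covered copies thus had smaller extension shares than atU4.1 in each of the 3 labelled knockdown libraries.

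For atU4-9 the extension was 0.101%, 1.44% and 8.30% in labelled knockdown libraries and 0% in all wild type libraries, a difference of 7.44 ± 1.54 (SE; limma adjusted p = 0.0124). The 8.30% in replicate 3 was the highest share of the unmarked U4 copies, over an snRNA depth of only 1253. For atU4-6 it was 0.0168%, 0.159% and 3.05% in labelled knockdown libraries and 0%, 0.00861% and 0% in wild type, a difference of 6.28 (limma adjusted p = 0.0403). atU4-9 and atU4-6 thus had no overlap, but spread widely among the labelled knockdown libraries. The atU4-9 call was lost without wild type replicate 1 (limma adjusted p = 0.0506), and that of atU4-6 without any 1 library other than labelled knockdown replicate 1 (limma adjusted p = 0.0618 to 0.138).

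For atU4-8 the extension share was 0.341%, 0.731% and 0% in labelled knockdown libraries, and for atU4-5 it was 0.382%, 0.274% and 0%; in wild type both were at 0% in all libraries. The groups therefore met at 0, and both copies had limma adjusted p = 0.0215 with differences of 6.69 and 5.30. Leaving out any 1 library other than labelled knockdown replicate 3 ended both calls (limma adjusted p = 0.0586 to 0.0717). For atU4-7 it was 0%, 0.382% and 2.16% in labelled knockdown libraries and 0.0121%, 0.0365% and 0% in wild type, with overlap, a difference of 3.72 (95% interval −1.89 to 9.33; limma adjusted p = 0.218). Without labelled knockdown replicate 1 the atU4-7 difference was 6.09 and called (limma adjusted p = 0.0357).

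In all, 7 of the 9 U4 copies with a value were called higher, and 34 of 67 copies of the whole table were, 50.7%. Of the 8 unmarked U4 copies with reads, all with snRNA reads in every library, 5 stood without overlap. Over the whole table that share was 44.4% of the 54 copies with snRNA reads in every library. The U4 median was 6.69 over 9 copies and the median over all 67 was 5.05. The medians of U1, U2, U5 and U6 were 6.64, 5.47, 4.77 and 3.98. On this log scale a difference is that of the extension minus that of the unscaled snRNA, so lower snRNA depth alone raises it: for atU4-5 the 5.30 is made of 3.34 for the extension and −1.96 for the snRNA. Of the 34 copies called over the whole table, 3 had an extension at 0 in every library, none of them a U4 copy. Under each of 10 alternatives atU4.1, atU4.2 and atU4-4 stayed called and atU4-9 in 9 of 10, while atU4-5, atU4-6 and atU4-8 were called in 5 of 10.

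**Figure D3:**
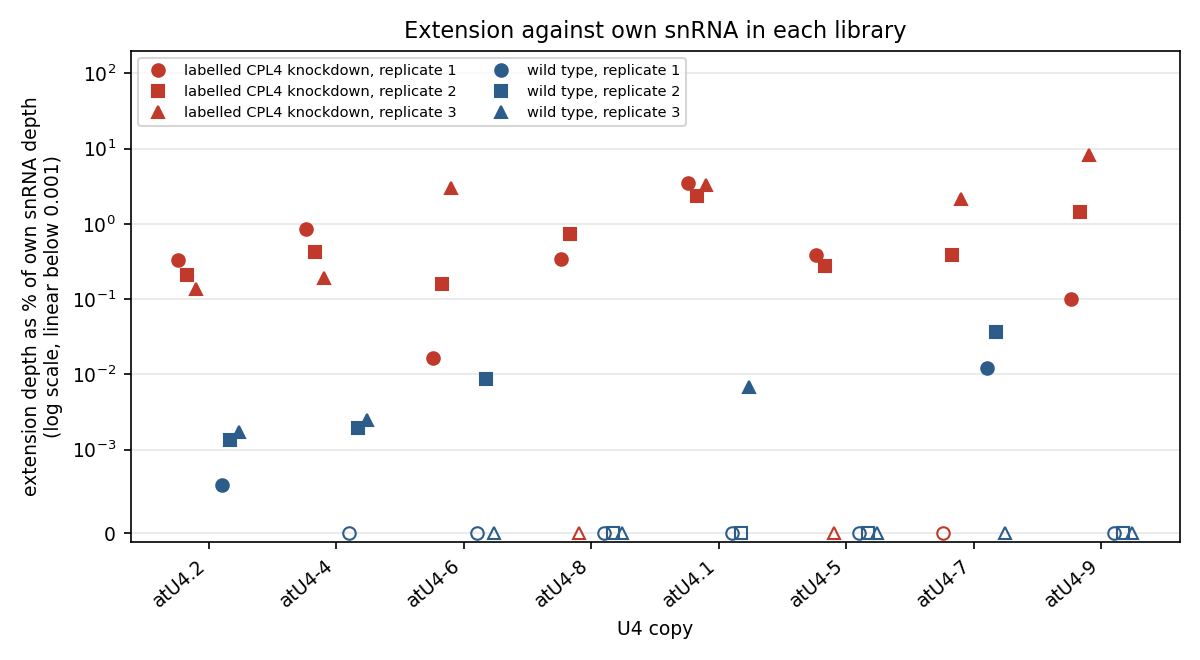
Extension depth as a percent of the depth of the same copy's snRNA in the same library, for the 8 unmarked U4 copies with reads (log scale, linear below 0.001%; open symbols at 0; labelled knockdown left, wild type right). The atU4.1 points of the labelled knockdown libraries lie together between 2.36% and 3.53%, while those of atU4-9 spread from 0.101% to 8.30%.

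Summed over the unmarked copies, U4 extension depth was 1981, 2872 and 1122 in labelled knockdown libraries and 5, 60 and 18 in wild type, 72.0-fold higher by the means of 1992 ± 875 in labelled knockdown libraries and 27.7 ± 28.7 in wild type (SD, n = 3 each; exact 2-sided permutation p = 0.1). U4 snRNA depth was 299169, 599328 and 166792 in labelled knockdown libraries and 978201, 2850103 and 940431 in wild type, 4.48-fold lower unscaled (exact 2-sided permutation p = 0.1). Without wild type replicate 2 the extension sum was 173-fold higher and the snRNA sum 2.70-fold lower; without labelled knockdown replicate 2 the snRNA sum was 6.82-fold lower. The extension percent was 0.662, 0.479 and 0.673 in labelled knockdown libraries and 5.11e-04, 0.00211 and 0.00191 in wild type, with means of 0.605% ± 0.109 in labelled knockdown libraries and 0.00151% ± 8.70e-04 in wild type (SD, n = 3 each; exact 2-sided permutation p = 0.1). In all 3 sums the groups did not overlap, and 0.1 is the smallest p that 3 libraries against 3 allow.

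The extension order differed from the snRNA order. atU4.1, which held 5.90%, 6.26% and 6.51% of U4 snRNA depth in the labelled knockdown libraries, held 31.4%, 30.9% and 31.5% of U4 extension depth there. atU4-4 led in labelled knockdown replicates 1 and 2, and atU4.1 led in replicate 3, where atU4-6 came next. atU4.2 and atU4-4 together held 64.7%, 48.9% and 18.0% of extension depth in the labelled knockdown libraries, less than their snRNA share in each of them.

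**Figure D4:**
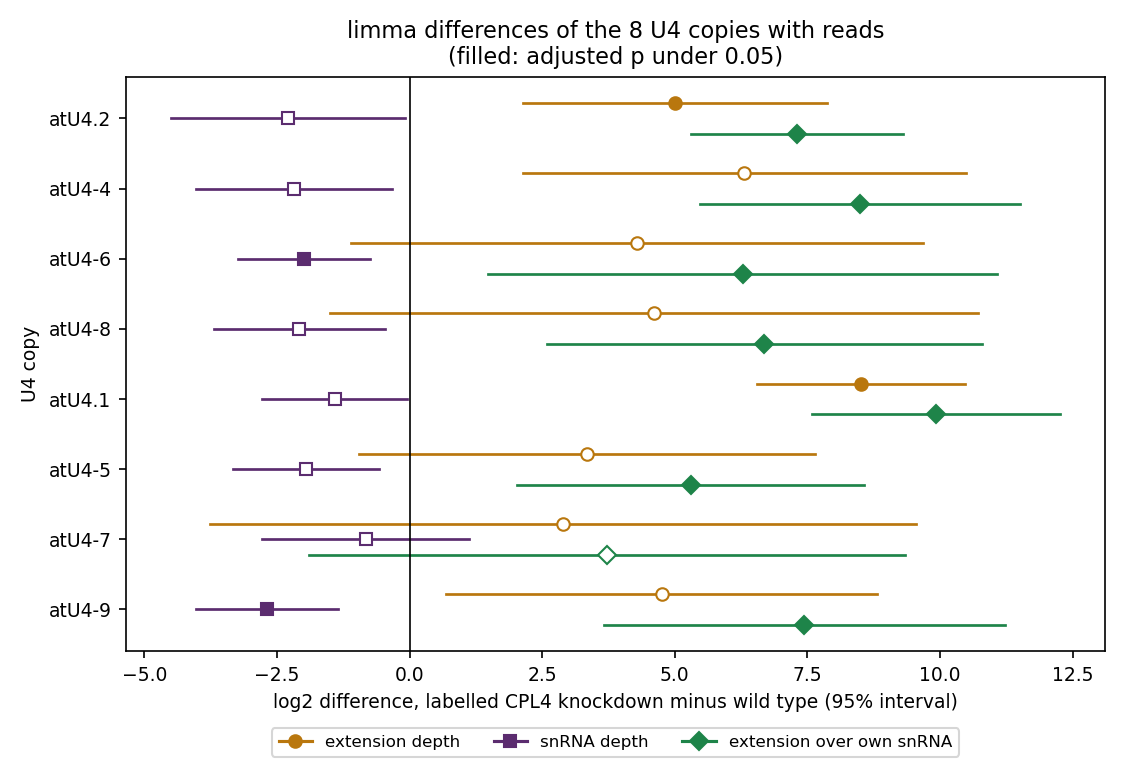
log2 differences (labelled knockdown minus wild type, with 95% intervals) of the 8 unmarked U4 copies with reads: extension depth (circles), unscaled snRNA depth (squares) and extension over own snRNA (diamonds), filled where the limma adjusted p was under 0.05. The extension over own snRNA is called in 7 of the 8 copies and the extension alone in 2. The snRNA differences are all negative here but 4 of 8 were positive after equal-depth scaling, whose total includes U4 itself.

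The U4 copies share an arrangement that the choice of members did not use. Of the 11 copies, 7 lay 187 to 230 bp after a U1 copy on the same strand, U1 being the snRNA that recognises the 5′ splice site. In the other large families, an snRNA within 500 bp upstream on the same strand was found for 1 of 18 U2 copies and for none of the 14 U1, 14 U5 and 13 U6 copies. The pairs with reads were atU4.1 after atU1a, atU4-5 after atU1-4, atU4-6 after atU1-10, atU4-7 after atU1-8 and atU4-8 after atU1-9. The other 2 pairs were atU4-10 after atU1-14p and atU4.3p after atU1-13p, in which the U4 copies had no reads. atU4.2, atU4-4, atU4-9 and the pseudogene atU4-11p stood alone.

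Grouped in this way, after the values were seen and with no test, the 5 copies behind a U1 copy had extension shares of 0.977%, 0.868% and 1.95% in labelled knockdown libraries and 0.00125%, 0.00636% and 0.00137% in wild type. The 3 unmarked copies that stood alone had 0.563%, 0.335% and 0.245% in labelled knockdown libraries and 2.71e-04%, 0.00158% and 0.00208% in wild type. Without atU4.1, a choice made after seeing the data, the other 4 copies behind U1 had 0.141%, 0.417% and 1.49% in labelled knockdown libraries, so in replicate 1 they stood below the copies that stood alone.

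None of the U1 partners had an extension that passed the test. The extension of atU1a, upstream of atU4.1, had 33, 127 and 0 in labelled knockdown libraries and 0 in all wild type libraries (limma adjusted p = 0.255). That of atU1-9, upstream of atU4-8, had 193, 141 and 0 in labelled knockdown libraries and 0, 0 and 21 in wild type (limma adjusted p = 0.536). The extension of atU1-4 was at 0 in all 6 libraries, and those of atU1-10 and atU1-8 were not called (limma adjusted p = 0.618 and 0.560). U1 snRNA depth was uneven within the groups: atU1a had 14844, 37897 and 544 in labelled knockdown libraries and 2220, 85578 and 70782 in wild type. Labelled knockdown replicate 3 and wild type replicate 1 were thus low for U1, which U4 depth in wild type replicate 1 was not; the part of this in the U1 values was not tested.

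The pseudogene copies had little depth or none. atU4.3p, 50 bp long (chr5:20094797-20094846, minus strand), was at 0 throughout, as was the unmarked atU4-10 (chr1:12987211-12987343, plus strand). atU4-11p (chr1:25643641-25643780, plus strand) was at 0 in all labelled knockdown libraries and had 0, 280 and 560 in wild type over its snRNA region, with 0, 100 and 200 over its extension. Its snRNA region and extension were equally deep per base, at 2 in wild type replicate 2 and at 4 in wild type replicate 3. Neither region was called (limma adjusted p = 0.248 each), although both were called lower when wild type replicate 1 was left out (log2 differences of −8.63 and −7.15; limma adjusted p = 0.00172 and 0.00267). Summed over both pseudogenes the exact 2-sided permutation p was 0.4 for each region type. By the RefSeq annotation atU4-11p and its extension, 190 bases, lie in an intron of AT1G68390, with no base in its 2 exons. In the authors' deposited table that gene stood at 0.662 FPKM in labelled knockdown libraries and 0.251 FPKM in wild type and was not tested. Whether the depth over atU4-11p and its extension came from RNA of the copy or of that gene was not tested. Counted with the other copies, atU4-11p brought the extension fold down to 15.6.

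U4.2 was the U4 copy with its own row in the gene table. In the authors' deposited table U4.2 (AT3G06900, chr3:2178053-2178626) stood at 194 FPKM in labelled knockdown libraries and 1113 FPKM in wild type, a log2 ratio of −2.52 (authors' q = 6.39e-04). By the authors' deposited table that is 5.75-fold lower, from 1 value per genotype, so the spread between replicates is unknown. In the values per library the snRNA depth of atU4.2 did not pass the test (limma adjusted p = 0.144). The locus row is shared with AT3G06895 on the opposite strand, which is listed at 0 FPKM in both genotypes; no source used here says whether the libraries kept strand, so reads of the 2 strands cannot be told apart.

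No gene downstream of a U4 copy was called. Within 2 kb after an snRNA and on its strand, 2 tested protein-coding genes were found. AT5G25770, 336 bp after atU4-5, had, by the authors' deposited table, 4.25 FPKM in labelled knockdown libraries and 3.12 FPKM in wild type (authors' q = 0.291); its locus row is shared with PEX4. AT1G79970, 802 bp after atU4-9, had, by the authors' deposited table, 17.7 FPKM in labelled knockdown libraries and 19.4 FPKM in wild type (authors' q = 0.561). Each has 1 value per genotype, so the spread between replicates is unknown.

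Proteins of the U4/U6 and U4/U6.U5 particles were followed in the same table, in a list of 11 genes. By the authors' deposited table, a total of 8 of 11 were higher in labelled knockdown libraries at q under 0.05 and none was lower, against 12.7% higher and 9.78% lower among 18038 tested genes. The median log2 ratio of the list was 0.47 and that of all tested genes −0.00348. At q under 0.01 the number higher was 4.

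The largest was PRP6 (STA1, AT4G03430), which bridges the U4/U6 and U5 particles, with 38.9 FPKM in labelled knockdown libraries and 18.6 FPKM in wild type by the authors' deposited table (log2 ratio 1.07, authors' q = 6.39e-04). A gene for SNU13, which binds the 5′ stem-loop of U4 (AT4G22380), had, by the authors' deposited table, 11.7 FPKM in labelled knockdown libraries and 7.37 FPKM in wild type (log2 ratio 0.67, authors' q = 0.0148). PRP31 (AT1G60170), which joins SNU13 on that stem-loop, had, by the authors' deposited table, 30.8 FPKM in labelled knockdown libraries and 20.4 FPKM in wild type (log2 ratio 0.60, authors' q = 6.39e-04). PRP8 (SUS2, AT1G80070), the core protein of the U5 particle, had, by the authors' deposited table, 90.5 FPKM in labelled knockdown libraries and 63.8 FPKM in wild type (log2 ratio 0.51, authors' q = 6.39e-04). The 3 not called were PRP3, PRP4 and another SNU13 gene, AT5G20160, with log2 ratios of −0.12, 0.01 and 0.36 from the authors' deposited table.

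Factors of snRNA promoters and 3′ ends gave no call. Of 4 genes listed, 3 were tested and 0 called in the authors' deposited table, while 2 had an unadjusted p under 0.05. SRD2 (AT1G28560), a subunit of the complex that activates snRNA promoters, had, by the authors' deposited table, 0.685 FPKM in labelled knockdown libraries and 1.23 FPKM in wild type (authors' p = 0.0163, q = 0.0661). CPSF73-I (AT1G61010), an endonuclease of messenger RNA 3′ ends, had, by the authors' deposited table, 18.9 FPKM in labelled knockdown libraries and 15.3 FPKM in wild type (authors' p = 0.0261, q = 0.0934). DSP1 (AT4G20060), a subunit of the plant snRNA 3′ end complex, had, by the authors' deposited table, 1.49 FPKM in labelled knockdown libraries and 1.70 FPKM in wild type (q = 0.569).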

How the data were processed

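The authors deposited the signal (coverage) per library for 75 snRNA regions and their extensions, adding up read depth base by base, unscaled, per the file headers and values. The authors also deposited 1 FPKM per genotype with a p-value and a q-value per gene and start group, in Cuffdiff's layout per the file headers. Per the submitters' processing notes the build was TAIR10 and the tools included TopHat2 2.0.14, Cuffdiff 2.2.1.3, SAMtools, Trim Galore 0.4.0 and CASAVA 1.8.2, with no options. FPKM ratios were recomputed from the deposited values, and the authors' q was used as deposited.

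Depth was tested with limma 3.58.1 (R 4.3.3) with genotype as its only term, on log2(depth + 1) over 150 regions and on the extension minus snRNA difference over 67 copies with reads, with Benjamini-Hochberg adjustment at 0.05. These differences depend on the pseudocount where a group is at 0. Sums were compared by exact permutation. The limma steps were tested on simulated normal values with equal spread in every region with reads and a large shift in some. That setting does not cover regions where a group is at 0. Python 3.11.15, pandas 2.3.3, scipy 1.17.1, Biopython 1.88 and matplotlib 3.10.9 were used.

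Alternatives were pseudocounts of 10 and 50, a mean depth of at least 50, each library left out, a replicate block and 2 scalings. Named were all U4 rows, CPL4, genes over or within 2 kb after a U4 copy, and up to 4 genes of each of 2 protein lists by size of change. Members and lists were chosen with earlier results of these data known. Coordinates count from 1 and are those of the table; RefSeq places several U4 genes elsewhere, but U4 sequence was found at the table's positions. The extension sequence of atU4-11p is not reported here.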

Additional observations from a re-analysis of the deposited data

How the results depend on the processing

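Main counts were 2 U4 extensions called higher, 2 U4 snRNA regions called lower, 7 copies called higher for extension over own snRNA and 8 particle proteins called higher. Leaving out 1 library at a time gave 1 to 4 extensions, 0 to 5 snRNA regions and 3 to 6 copies. With the replicate block there were 0 extensions, 1 snRNA region and 7 copies. With it the atU4.1 extension was no longer called (limma adjusted p = 0.0551) and atU4-4 snRNA was (limma adjusted p = 0.0451). Same-numbered libraries correlated at 0.0293 to 0.0707 over 123 regions, under 0.1, and others at −0.0600 to 0.0154, so the numbers were not taken to pair samples, although each library correlated best with its own number. A mean depth of at least 50 left 1 snRNA region; median-ratio and equal-depth scaling left 0. At q under 0.01, 4 proteins remained. Over the 123 regions with reads the median log2 difference was 0.97 under median-ratio and 1.33 under equal-depth scaling, against −0.69 unscaled. Signs turned for snRNA of atU4.1 (0.29 and 0.65) and atU4-7 (0.87, limma adjusted p = 0.0127, and 1.23) under those scalings in turn, and of atU4-5 (0.10) and atU4-6 (0.066) under equal depth; the cause was not tested. Extension differences of the 8 unmarked copies with reads were positive in all 94 values (0.48 to 9.81), and those over own snRNA in all 80 (1.91 to 10.70). The extension depth differences of atU4-5, atU4-8 and atU4-9 could not be negative, as every wild type value was 0. Wild type extension sums of a few bases limit every fold given here. Leaving out atU4.1 took the mean labelled knockdown excess of extension percent in copies behind U1 over copies alone to 0.301, against 0.882 with it.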
